A study of Homo sapiens with 42 samples.

Results

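93VU147T is a head and neck squamous cell carcinoma (HNSCC) cell line, and the comparison described here asks which genes its untreated cells express above or below 5 other HNSCC lines. The comparison holds 18 of the 42 arrays of the series. These are the 3 control arrays of 93VU147T and 15 control arrays of SCC25, SQ20B, SCC61, SCC047 and SCC090, with 3 per line. Arrays were chosen by the line and treatment in their labels, and no measured value was used. The control arrays are labelled as given no treatment, while the study's methods name PBS as the control. The paper lists 93VU147T, SCC047 and SCC090 as HPV-positive and SCC25, SQ20B and SCC61 as HPV-negative, which the labels do not state. Each line stands for 1 tumor, so a gene set apart in 93VU147T describes that line and no class of tumors. Whether the 3 arrays of a line hold RNA of 3 cultures is not stated in any source, and the p-values then reflect array-to-array spread that may be technical only. The 18 cetuximab arrays of the same 6 lines, given 100 nM of this EGFR antibody for 24 hours, served as a second set for the same comparison.

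A squamous carcinoma line keeps parts of the program of a stratified epithelium, such as keratins, desmosomes and the serpins and S100 proteins of differentiating keratinocytes. Lines of one tumor type still differ from each other, through copy number, promoter methylation and the transcription factors that stay active. NRF2 is a factor of this kind that is often active in squamous cancers. It is held in the cytoplasm by KEAP1 until oxidants or electrophiles release it, and it then binds antioxidant response elements near genes for glutathione, NADPH and drug metabolism.

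Array medians ran from 5.11 to 5.155 on the log2 scale, and the 3 arrays of 93VU147T correlated with r between 0.9933 and 0.9970 across genes. The third array of 93VU147T had 15 genes more than 1 log2 unit from the mean of the other two, against 4 and 1 for the first and second. SCC090 replicate 1 stood furthest apart, with 229 such genes, and the other 14 arrays of the 5 lines had 0 to 56. SQ20B replicate 3 was the 1 control array of the compared lines in another scan batch. Differences between 3′ and 5′ probe sets of GAPDH were 0.11 to 0.16 in 93VU147T and 0.01 to 0.14 in the other lines, and those of ACTB were 0.27 to 0.43 and 0.15 to 0.46. Their part in the results was not tested. Of 10 epithelial markers measured, all had a mean above log2 6 in 93VU147T, while 4 of 5 melanocyte, 7 of 8 endothelial and 4 of 6 leukocyte markers were under it.

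Of 19775 genes tested, 5507 were higher in 93VU147T than the mean of the 5 line means and 4677 were lower, in limma at a Benjamini-Hochberg adjusted p under 0.05. These are 27.8% and 23.7% of all genes, so a difference from the average of the other lines was common. A narrower class was therefore counted, the genes that lay outside the range of all 5 lines. A gene was called above or below each line when its difference from every single line had the same sign and the largest of the 5 p-values, adjusted over all genes, was under 0.05. The difference from the nearest of the 5 lines is called the margin below. By this rule 885 genes (4.48% of those tested) were above each line and 737 (3.73%) were below each line. The margin was at least 1 log2 unit, or 2-fold, for 131 genes above (0.662%) and 111 below (0.561%). These 242 genes form the set that most separates untreated 93VU147T, and for all of them the 3 arrays of 93VU147T lay outside the range of the other 15 arrays. The rule asked for wide margins on these same arrays. Among all 19775 genes the 3 arrays lay above all 15 for 1318 and below all 15 for 948, so such separation was not particular to the 242.

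The size of this set was not unusual for the panel. With the same 2-fold rule, SCC25 had 211 genes outside the range of its 5 comparison lines, SCC047 had 288, SQ20B had 323, SCC61 had 416 and SCC090 had 824. Among single lines 93VU147T was closest to SCC047, with 2060 genes different by at least 2-fold and r = 0.9475 between line means across genes. It was furthest from SCC61 by count, with 3508 genes, and from SCC090 by correlation, with r = 0.9142. For 38 of the 131 genes above, all 5 other lines had a mean under log2 6, near the level of undetected genes. For 66 of the 111 genes below, the mean of 93VU147T itself was under log2 6. Each array averages over a culture, so fewer cells that express a gene and less RNA per cell cannot be told apart.

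The gene with the widest margin above the other lines was PLIN2, on chromosome 9, which encodes a coat protein of lipid droplets. Its log2 values in 93VU147T were 9.09, 9.06 and 8.86, and those of the other 15 arrays had a lowest value of 4.51, a median of 5.03 and a highest value of 5.71. The 3 arrays of 93VU147T thus sat more than 3 log2 units above every other array. The log2 difference from the mean of the 5 lines was 3.94 ± 0.10 (SE, 3 arrays per line), and the margin over SQ20B was 3.57 (limma, adjusted p = 5.13e-13 for the largest of the 5 comparisons). The other PLIN2 probe set was higher in 93VU147T than the mean of the lines too, but was not outside their range. All 5 other lines averaged under log2 6 for PLIN2, near the level of undetected genes. Where one side of a difference is that low, here and for the genes below, the difference is a lower bound on the true one. CLIC2, on chromosome X, encodes a chloride intracellular channel protein. It read 8.89, 8.73 and 8.57 in 93VU147T and 3.27 to 5.37 elsewhere, with a median of 3.52. The nearest line was SCC090, and the margin over it was 3.46.

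SCGB1A1, the secretoglobin of airway club cells, followed with 9.26, 8.94 and 8.56 in 93VU147T. The other arrays ran from 3.53 through a median of 3.96 to 6.04, and SCC61 was nearest with a margin of 3.14. No array of another line reached it. ABCC3, an efflux pump for conjugated drugs and bile acids, read 10.27, 10.35 and 10.83 against 4.94 to 7.59. Its margin over SQ20B was 3.08, and all 4 of its other probe sets were outside the range of the other lines too. MYL9, the regulatory light chain of smooth muscle and non-muscle myosin, read 10.37, 10.31 and 10.04. SCC047 was the next line with 7.62 to 7.88, and the remaining lines lay between 4.07 and 5.95, so the order was 93VU147T, SCC047 and then the rest. ITGA4, the alpha4 integrin subunit best known from leukocytes, read 7.65, 7.84 and 7.72, while the other lines had a median of 4.01 and a highest value of 5.58. All 3 other ITGA4 probe sets were outside the range in the same direction.

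The remaining leading genes above each line were of mixed kinds. They were DPY19L2P2, a transcribed pseudogene with a margin of 2.85, the antisense RNA CCDC144NL-AS1 (2.51), the orphan transporter SLC10A4 (2.46), KASH5, which links meiotic telomeres to dynein (2.37), the thrombin receptor family member F2RL2 (2.35) and the actin-like gene ACTL8 (2.25). F2RL2 had the widest spread of these in 93VU147T, at 5.92 ± 0.55 (SD, n = 3), and its margin was 2.04 without replicate 3. CCDC144NL-AS1 had 3 other probe sets, of which 0 were outside the range, so this call rests on 1 probe set. AKR1C3, PSG7 and PSG4 complete the 15 and are described with their families below. Further down, the set held C5 (margin 1.76) and its receptor C5AR1 (1.64), complement genes that were each above all 5 lines. It also held UCHL1, a deubiquitinase of neurons (1.66), the peptide hormone endothelin EDN1 (2.83-fold over SCC61), and TPM1, an actin filament gene (1.36). C5, C5AR1, UCHL1, EDN1 and TPM1 were picked out after their values were seen, and EDN1 differed by 0.11 from the mean of the lines in the cetuximab arrays, with no call there.

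**Figure D1:**
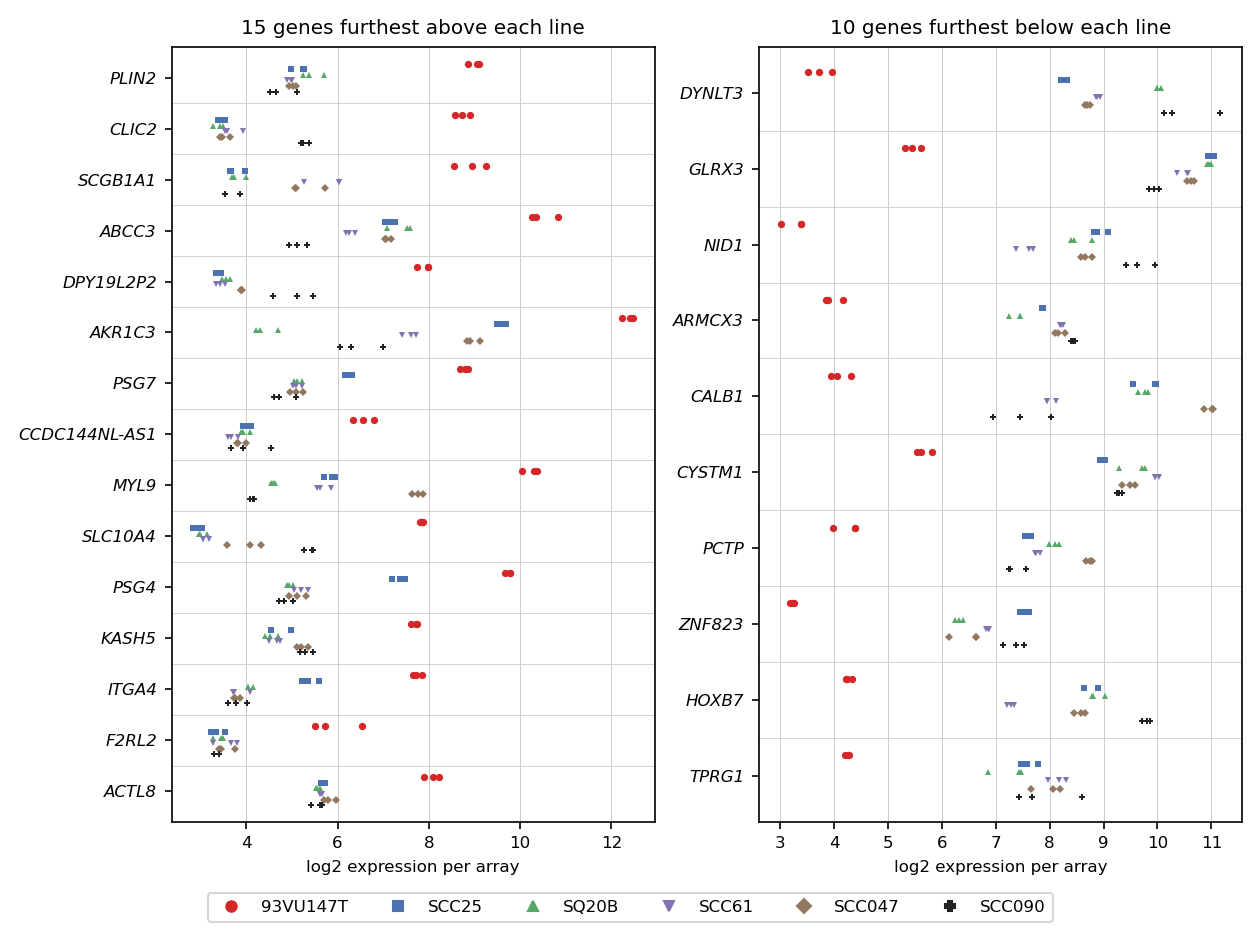
Log2 expression per array (x axis) of the 15 genes furthest above and the 10 genes furthest below each of the 5 lines, with 3 points per line. In each row the 3 red points of untreated 93VU147T lie apart from all 15 other points, by a margin of 2.25 to 3.57 between line means on the left and 3.00 to 4.53 on the right.

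On the low side, DYNLT3 had the widest margin. It encodes a light chain of the dynein motor and lies on chromosome X. Its values in 93VU147T were 3.97, 3.72 and 3.51, against a lowest value of 8.21, a median of 8.88 and a highest value of 11.16 in the other arrays. The gene was thus near the floor in 93VU147T and clearly present in every other line (log2 difference from their mean -5.54 ± 0.14, SE). GLRX3, on chromosome 10, encodes a monothiol glutaredoxin that handles iron-sulfur clusters. It read 5.45, 5.31 and 5.61 in 93VU147T and 9.85 to 11.04 elsewhere, and 2 of its 3 other probe sets were outside the range too. NID1, a basement membrane glycoprotein that joins laminin to collagen IV, read 3.38, 3.39 and 3.01 against 7.37 to 9.95. The margins of DYNLT3, GLRX3 and NID1 were -4.53, -4.48 and -4.30, with the mean of 93VU147T under log2 6 in each.

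HOXB7, a homeobox gene of chromosome 17, read 4.34, 4.23 and 4.24 in 93VU147T, whereas no other array was under 7.21. Both other probe sets of HOXB7 gave the same order, and the margin was -3.01 from SCC61. Of 28 HOX genes measured, 6 were higher and 11 lower than the mean of the lines, where 27.8% of all genes were higher and 23.7% lower. HOXB7 and HOXC10 (margin -0.495) were below each line and HOXD1 (0.36) above, against 3.73% and 4.48% of all genes. The call of HOXD1 was lost without replicate 3 of 93VU147T. CALB1, which encodes the calcium buffer calbindin, read 3.95 to 4.31 against 6.95 to 11.03. The other leading genes below were ARMCX3, a mitochondrial armadillo protein (margin -3.42), CYSTM1 (-3.31), the phosphatidylcholine transfer protein PCTP (-3.11), the zinc finger gene ZNF823 (-3.10) and TPRG1 (-3.00). In each of these 5 genes the mean of 93VU147T was under log2 6.

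The NRF2 and xenobiotic list was the list that stood out most by its median. Of 32 members measured, 24 were higher and 7 lower than the mean of the 5 lines, 19 of the 24 by at least 2-fold, and the median log2 difference was 1.09 against 0.04 over all genes. Above each line were 11 of 32 members and 0 were below, where 4.48% of all genes were above. Without replicate 3 of 93VU147T the count was again 11, with 24 members higher. Cetuximab arrays gave 13 members above each line and 1 below.

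These 11 genes cover several steps of redox and drug metabolism. AKR1C3, an aldo-keto reductase of steroids and prostaglandins, read 12.47, 12.41 and 12.23 in 93VU147T and 4.21 to 9.68 in the other arrays, a margin of 2.77 over SCC25. SQ20B was lowest, and the order of the other lines was SCC25, SCC047, SCC61, SCC090 and SQ20B. Its neighbors AKR1C1 and AKR1C2 had margins of 0.87 and 0.88 over SCC090, and the relative AKR1B10 had 1.162 over SCC047. The 3 AKR1C genes are near-identical in sequence, so their probe sets may share signal. NQO1, the quinone reductase that serves as a standard reporter of NRF2, read 12.54, 12.51 and 12.32, and all 15 other arrays lay between 8.97 and 10.96. Its margin was 1.55 over SQ20B, and both of its other probe sets were outside the range.

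The heme oxygenase HMOX1 read 7.92, 7.86 and 7.72 against 5.65 to 6.68 (margin 1.30), the glucuronosyltransferase UGT1A6 had a margin of 1.03, and the glutathione peroxidase GPX2 one of 0.83. PIR and OSGIN1 were above each line by 0.33 and 0.29 only. ABCC3, described above, completes the 11. Other members were higher than the mean but not called above each line. The glutamate-cysteine ligase subunit GCLC averaged 11.51 in 93VU147T and 11.14 in SCC61, a margin of 0.36 that did not pass (adjusted p = 0.139). The cystine transporter SLC7A11 averaged 9.98 against 10.11 in SQ20B, and the thioredoxin reductase TXNRD1 averaged 10.98 against 12.12 in SCC61. The 7 lower members were ALDH1A1, GSTM1, GSTM2, GSTM4, GSTT1, ABCC2 and CYP1A1, with differences of -0.94 to -0.30 from the mean of the lines. None of these 7 was below each line.

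**Figure D2:**
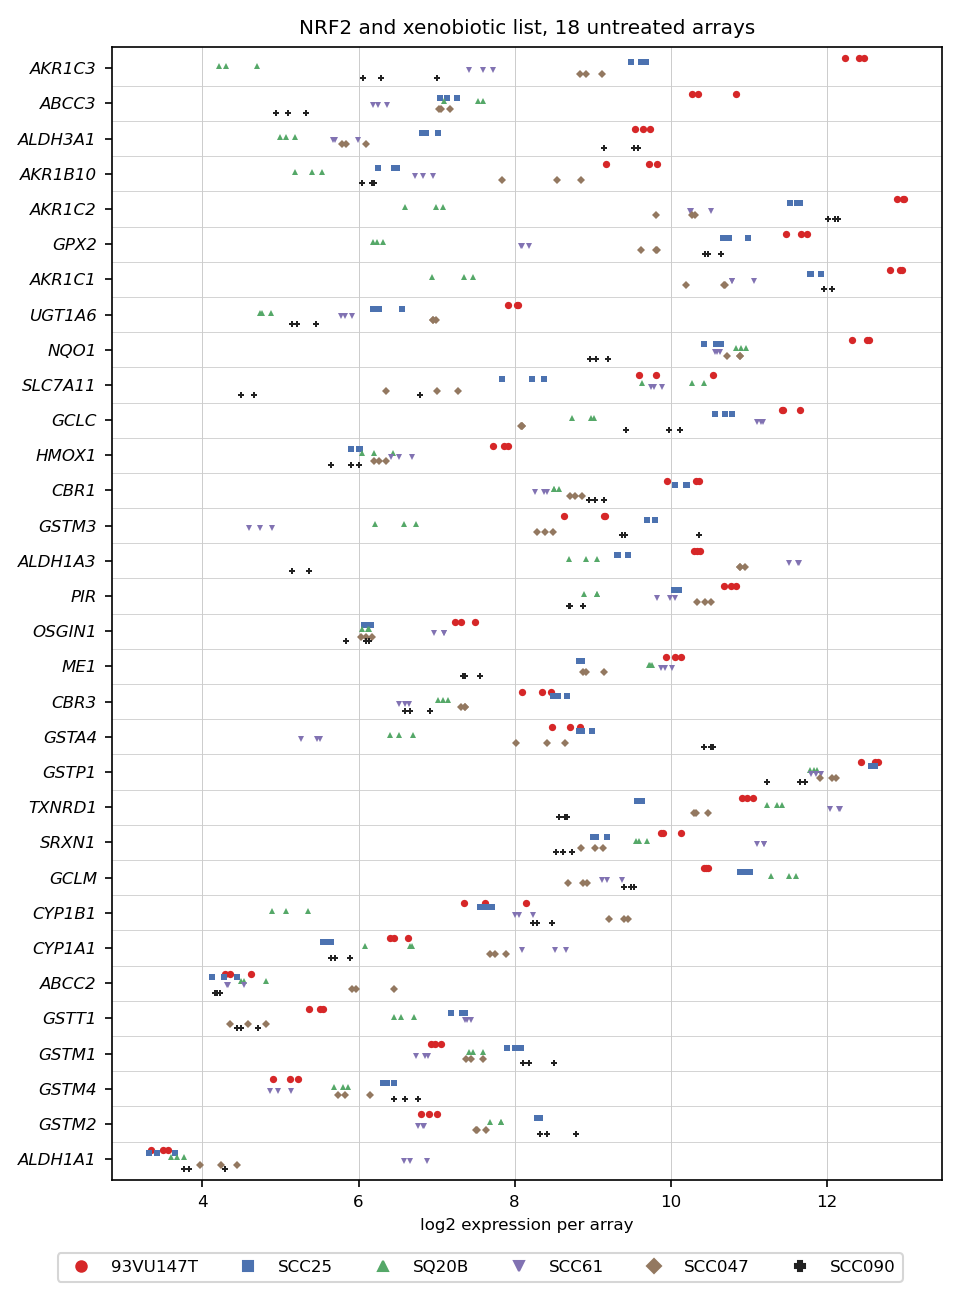
Log2 expression per array (x axis) of the 32 measured genes of the NRF2 and xenobiotic list, ordered by the difference of 93VU147T from the mean of the 5 lines. The red points of 93VU147T are above each line for 11 genes, AKR1C3 and ABCC3 by the widest gaps, and fall among the other lines in the rows at the bottom.

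Promoters are shown for the called members of this list in which the letters of the antioxidant response element core were found. The motif searched was TGACNNNGC on both strands, in the 300 bases from 250 before to 50 after a gene start in RefSeq (GRCh38.p14). It was present in 13.3% of all 35116 promoters of that length. Of 24 list genes with a promoter entry 10 held it, and of 8 called above each line with an entry 3 held it. The matches are in capitals, on the gene's own strand for UGT1A6 and on the opposite strand for GPX2 and PIR, and each line runs 5′ to 3′ along the gene.
GPX2, chr14:64942696-64942995, minus strand: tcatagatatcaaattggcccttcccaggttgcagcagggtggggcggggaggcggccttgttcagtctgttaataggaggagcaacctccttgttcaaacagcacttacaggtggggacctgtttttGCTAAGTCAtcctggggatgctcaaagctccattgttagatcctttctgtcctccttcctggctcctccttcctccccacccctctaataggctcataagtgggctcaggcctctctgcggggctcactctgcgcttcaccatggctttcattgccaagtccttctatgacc
PIR, chrX:15493284-15493583, minus strand: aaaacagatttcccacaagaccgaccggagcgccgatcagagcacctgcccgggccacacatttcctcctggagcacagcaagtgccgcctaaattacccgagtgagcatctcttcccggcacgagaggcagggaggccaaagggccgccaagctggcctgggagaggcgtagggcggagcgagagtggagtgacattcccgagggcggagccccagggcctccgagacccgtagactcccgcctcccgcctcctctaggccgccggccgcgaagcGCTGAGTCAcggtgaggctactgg
UGT1A6, chr2:233692640-233692939, plus strand: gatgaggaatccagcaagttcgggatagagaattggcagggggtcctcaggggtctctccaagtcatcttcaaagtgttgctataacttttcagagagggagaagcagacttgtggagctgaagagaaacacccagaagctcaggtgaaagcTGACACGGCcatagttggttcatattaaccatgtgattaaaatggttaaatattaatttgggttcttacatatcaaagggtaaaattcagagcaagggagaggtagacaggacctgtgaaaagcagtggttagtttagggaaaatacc
UGT1A6 has a second entry at another start, which did not match. A match describes letters and not a bound site, and the entries of NQO1, AKR1C1, AKR1C2, AKR1C3 and OSGIN1 held no match in these windows.

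Pregnancy-specific glycoproteins formed a further group. PSG genes lie side by side on chromosome 19, belong to the CEA family and are best known from the placental trophoblast. Of 9 measured, 6 were above each line and 5 of these by at least 2-fold, and no other was called in either direction, where 4.48% of all genes were above each line and 0.662% by at least 2-fold. The family was picked out after its values were seen. PSG7 read 8.69, 8.85 and 8.78 in 93VU147T, and PSG4 read 9.66, 9.77 and 9.77. SCC25 was the next line for both, at 6.16 to 6.32 and 7.19 to 7.48, and the other lines lay between 4.61 and 5.35. The 93VU147T arrays therefore came first and SCC25 second, with no overlap between them or with the rest. In the cetuximab arrays 1 of the 9, PSG7, was above each line, by a margin of 0.42. Margins were 2.54 for PSG7, 2.38 for PSG4, 1.65 for PSG9, 1.63 for PSG1, 1.22 for PSG6 and 0.34 for PSG5. PSG paralogs are close in sequence, so how many of them were transcribed cannot be read from these probe sets.

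Several epithelial gene groups leaned lower. Of 12 desmosome genes 9 were lower and 0 higher, with a median of -0.57, and DSG2, a desmosomal cadherin, was below each line. DSG2 read 9.17, 9.31 and 9.50 against 10.24 to 10.96 elsewhere, a margin of -1.20. Its margin was -0.18 in the cetuximab arrays, with no call. Desmoplakin DSP, DSG3 and DSC2 had log2 differences of -1.156, -1.08 and -1.33 from the mean of the lines but were not called below each line. DSP was called without replicate 3 of 93VU147T (margin -0.59). Of 8 squamous keratins 5 were lower, among them KRT14 (-3.09) and KRT16 (-2.81), and 0 were higher or outside the range. Simple keratins did not share this, with 1 of 5 higher, 2 lower and a median of 0.04. Of 7 hemidesmosome and laminin-332 genes 3 were higher and 4 lower. Of 10 epithelial markers 7 were lower, while the E-cadherin gene CDH1 (difference 0.02, adjusted p = 0.906) and SFN (-0.065, adjusted p = 0.342) did not pass in limma. Claudins and tight junction genes went the other way, with 11 of 17 higher, 2 lower and a median of 0.54. CLDN1 and CLDN23 were above each line with margins of 0.53 and 0.55. CLDN1 lost this call without replicate 3 of 93VU147T (margin 0.39), and neither was called in the cetuximab arrays. The serpin SERPINB3 was below each line (margin -1.71), and of 10 SERPINB genes 5 were lower and 1 higher. A lean of desmosome genes and squamous keratins toward lower values thus stood beside higher tight junction genes, and over all genes 27.8% were higher and 23.7% lower.

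Mesenchymal genes as a list did not lean either way, with 4 of 13 higher and 3 lower. For this and the lists that follow, 27.8% of all genes were higher and 23.7% lower. The matrix genes were split too: of 36 measured, 9 were higher and 14 lower. COL3A1, a fibrillar collagen of stroma, was above each line at 6.58 ± 0.46 (SD, n = 3) with a margin of 2.08, while NID1 was far below. Of 9 fibroblast markers 3 were higher and 2 lower. Their mean level per array was 5.52 to 5.68 in 93VU147T and 4.81 to 6.21 in the other lines, and 6 of the 9, among them PDGFRA, PDGFRB and THY1, were under log2 6 in 93VU147T. Of 6 leukocyte markers 4 were higher, led by CD14 (margin 0.68), whereas the defining marker PTPRC stayed at 4.30. Their mean level was 5.82 to 5.91 in 93VU147T and 4.89 to 5.73 elsewhere.

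Among immune genes, all 12 measured genes of MHC class I presentation were higher than the mean of the lines, where 27.8% of all genes were higher and 23.7% lower. Their median was 0.89, and 0 were outside the range. Under cetuximab 9 of the 12 were higher and 1 lower, with a median of 0.532. HLA-B was higher by 1.22 and the immunoproteasome subunit PSMB8 by 1.37. Of 11 MHC class II genes 1 was higher and 4 lower, and of 5 APOBEC3 genes 1 was higher and 0 lower. Interferon response genes did not move together, with 9 of 24 higher and 11 lower. IFI27 (3.59), BST2 (2.68) and MX1 (2.45) were higher, while IFIT2 (-2.29) and SAMD9 (-2.23) were lower. Of 27 cytokines and chemokines 12 were higher and 7 lower, 6 of the 7 by at least 2-fold. CXCL2, CXCL8 and IL32, 3 of the 27 against 4.48% of all genes, were above each line with margins of 1.75, 1.46 and 0.67. The 2 other CXCL2 probe sets were higher than the mean of the lines too, but 0 were outside the range. CXCL8, the main attractant of neutrophils, read 10.13, 9.86 and 9.32 against a median of 7.10 and a highest value of 8.49. No member of this list was above each line in the cetuximab arrays.

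Cell cycle genes went both ways. Of 24 proliferation genes 10 were higher and 12 lower, where 27.8% of all genes were higher and 23.7% lower. The replicative helicase subunits MCM7 (margin 1.18) and MCM3 were above each line. Among the other helicase genes, MCM2, MCM5 and MCM6 were higher than the mean of the lines by 0.41, 0.375 and 0.65, and MCM4 is not reported here. The mitotic kinase CDK1 was below each line at 9.10, 9.07 and 8.72 against 10.01 to 10.68, with all 3 of its other probe sets outside the range. MKI67 (margin -0.89), BUB1 (-0.71), RRM2 and CCNA2 were below each line as well. Thus 2 of the 24 were above and 5 below each line, against 4.48% and 3.73% of all genes. Without replicate 3 of 93VU147T the calls of MCM3 (margin 0.26) and CCNA2 (-0.27) were lost. In the cetuximab arrays 1 of these members was above and 0 below each line. CDKN2A, the gene of the p16 inhibitor that is usually high in HPV-positive tumors, averaged 12.1 in 93VU147T, 11.6 in SCC047 and 10.9 in SCC090. In the remaining lines it averaged 5.88, 6.89 and 9.95, and 93VU147T was above each line by a margin of 0.50.

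Developmental transcription factors did not move as a group. Of 33 craniofacial factors 9 were higher and 12 lower, where 27.8% of all genes were higher and 23.7% lower, and 3 were above and 1 below each line. IRX4 read 9.19, 9.22 and 9.26 against 4.75 to 7.81 in the other lines (margin 1.52). LHX6, a LIM homeobox gene of the oral mesenchyme, had a margin of 1.22 and NKX2-3 one of 0.98, while MSX2 was below each line (-0.94). Of the 2 other MSX2 probe sets 1 was outside the range and 1 had the opposite sign. Of 20 measured genes on the meiotic germline list 4 were above each line: STAG3 (margin 0.80), SYCE2 (0.69), MEI1 (0.42) and RIBC2 (0.395). Over all genes 4.48% were above each line, and of the 20 genes on this list 6 were higher and 4 lower than the mean. Other lines also expressed these 4 genes. STAG3 averaged 8.402 in 93VU147T and 7.60 in SCC090, MEI1 8.04 and 7.62 in the same lines, and RIBC2 6.69 and 6.30, while SYCE2 averaged 8.004 in 93VU147T and 7.32 in SCC047. MEI1 and RIBC2 were not called in the cetuximab arrays. Of 18 measured genes on the cancer-testis list, 1 was higher, 8 were lower and 0 were outside the range. ACTL8, named above among the leading genes, was not on this list.

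Growth factor receptors and their signaling genes were mostly not called outside the range. EGFR, the target of cetuximab, read 10.53, 10.72 and 11.46 in 93VU147T, below the mean of the lines by 0.41 ± 0.13 (SE, adjusted p = 0.0101) and inside their span of 9.17 to 12.99. That call was lost without replicate 1 of 93VU147T (difference -0.219, adjusted p = 0.187 in limma), without replicate 2 (-0.313, 0.0947), and without SQ20B (-0.005, 0.982) or SCC61 (-0.222, 0.191) among the lines. Of 34 receptor tyrosine kinases 9 were higher and 8 lower, close to the 27.8% and 23.7% of all genes, and EPHB4 was the one above each line (margin 1.22). The TGF-beta co-receptor TGFBR3 was below each line, at 4.87, 4.43 and 4.77 against 6.10 to 9.19 (margin -1.59), and BMP4 was above each line by 0.51. IGF1R was higher by 0.84 and VEGFA by 0.95 than the mean, TGFA was lower by 0.62, and none of the 3 was called outside the range. ERBB2, HRAS, BMP2, FGFR4 and TFAP2A had log2 differences between -0.34 and 0.00 from the mean. Of these 5, TFAP2A passed (adjusted p = 0.00452 in limma), a call lost without replicate 1 of 93VU147T (-0.204, adjusted p = 0.101) or without SCC047 among the lines (-0.238, 0.0558). Without SCC61 the sign of TFAP2A turned (0.028, adjusted p = 0.849). The phosphoinositide kinase gene PIK3CB was below each line (-0.92) and TSC2 above (0.42). Sterol synthesis genes were lower in 7 of 10 cases, with DHCR7 below each line (-0.997) and a list median of -0.85.

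Genes outside the range were unevenly spread over chromosomes. On chromosome 7, 10.6% of 932 genes were above each line, and on chromosomes 16 and 9 the shares were 13.3% and 9.54%, against 4.48% of all genes. Chromosome 7 held 29 of the 131 genes above by at least 2-fold, 22.1% of them, with 4.73% of the genes tested. Genes below each line were most frequent on chromosome 13 (8.23%), 10 (7.72%), 11 (7.17%) and 3 (7.16%), against 3.73% of all genes. In the cetuximab arrays the shares above were 11.3% on chromosome 7, 10.7% on 16 and 8.12% on 9, against 4.04% of all genes. The shares below were 4.24%, 7.21%, 7.96% and 6.17% on chromosomes 13, 10, 11 and 3, against 3.68%. DNA copy number was not measured here.

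**Figure D3:**
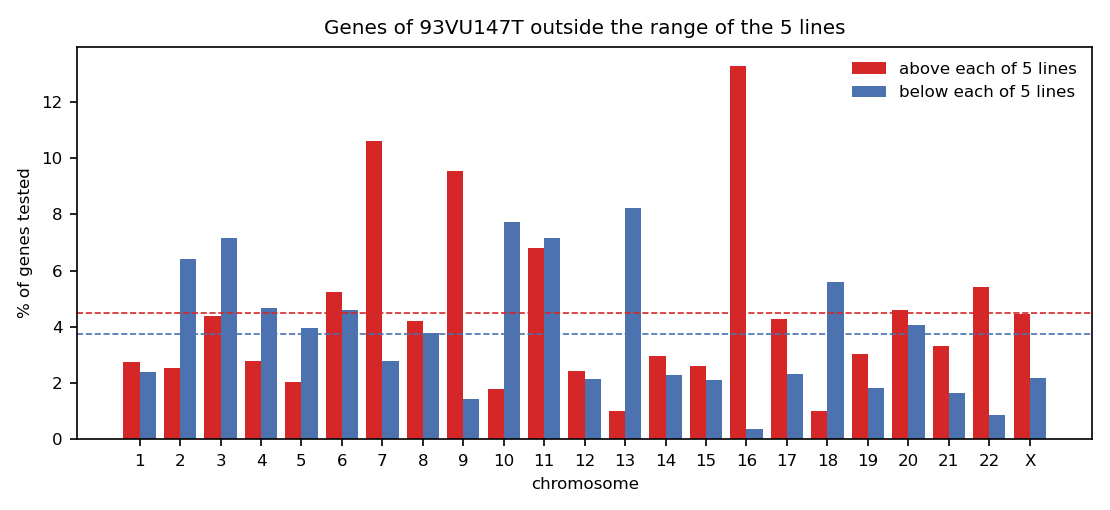
Share of tested genes (y axis, percent) that were above (red) or below (blue) each of the 5 lines in untreated 93VU147T, by chromosome. Dashed lines mark the shares over all genes, 4.48% and 3.73%; chromosomes 16, 7 and 9 reach 13.3%, 10.6% and 9.54% above.

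The densest stretch was on chromosome 7. Among 40 consecutive measured genes from AZGP1P1 to TRIP6, 26 were above each line, 0 were below, and 11 were above by at least 2-fold. The median difference of the 40 genes was 0.99. The window was picked as the densest on its chromosome, so its count is a description. The longest unbroken run lies in it, 9 genes from ZNF3 to TRAPPC14. In this run COPS6 (margin 1.29), a subunit of the COP9 signalosome, MCM7 (1.18), the adaptor gene AP4M1 (1.19) and TAF6 (1.49), a subunit of TFIID, were neighbors that were all above by at least 2-fold. TAF6 read 10.46, 10.56 and 10.65 against 8.62 to 9.10 in all other arrays. STAG3 and EPHB4, named above, belong to the same window.

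Of the other runs, the one with neighbors all at least 2-fold below was YAP1, BIRC2 and TMEM123 on chromosome 11. YAP1, the effector of Hippo signaling, read 7.98, 8.26 and 8.29 against 9.02 to 11.05, and the apoptosis inhibitor BIRC2 read 8.28, 8.29 and 8.35 against 9.54 to 11.40. Their margins were -1.04 and -1.33, and that of TMEM123 was -1.32. In the window of 40 genes from CHORDC1 to TMEM123, 16 were below each line, 0 above, and the median difference was -1.22. This window too was picked as the densest in its direction on its chromosome, where 7.17% of genes were below each line against 3.73% of all genes. YAP1 and BIRC2 were lowest in 93VU147T and next lowest in SCC090. On the same chromosome CTTN, the cortactin gene, was above each line, at 12.73, 12.79 and 12.92 against 8.14 to 11.34 (2.83-fold over SCC25). Of its 4 other probe sets 2 were outside the range and 1 had the opposite sign. Of 10 genes of the amplicon around CTTN and CCND1, 6 were higher and 1 lower, where 27.8% of all genes were higher and 23.7% lower. PPFIA1 (margin 0.82) was the other one above each line, so 2 of the 10 were, against 4.48% of all genes. SCC25 was the nearest line for both. Across chromosome 11, 6.82% of genes were above each line, so genes above and genes below both lay on it.

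Chromosome X carried a smaller low block around DYNLT3. From DMD to SRPX 14 genes were measured, and 5 of them, DMD, PRRG1, XK, DYNLT3 and SRPX, were below each line, 4 by at least 2-fold. The other 9 were not called, and their means were under log2 6 in every line. DMD, the dystrophin gene, read 3.18 to 3.34 in 93VU147T against 5.82 to 7.21, and the margin of PRRG1 was -0.99. The next gene along the chromosome with a call, TSPAN7, was above each line. This block was noticed after the values were seen.

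**Figure D4:**
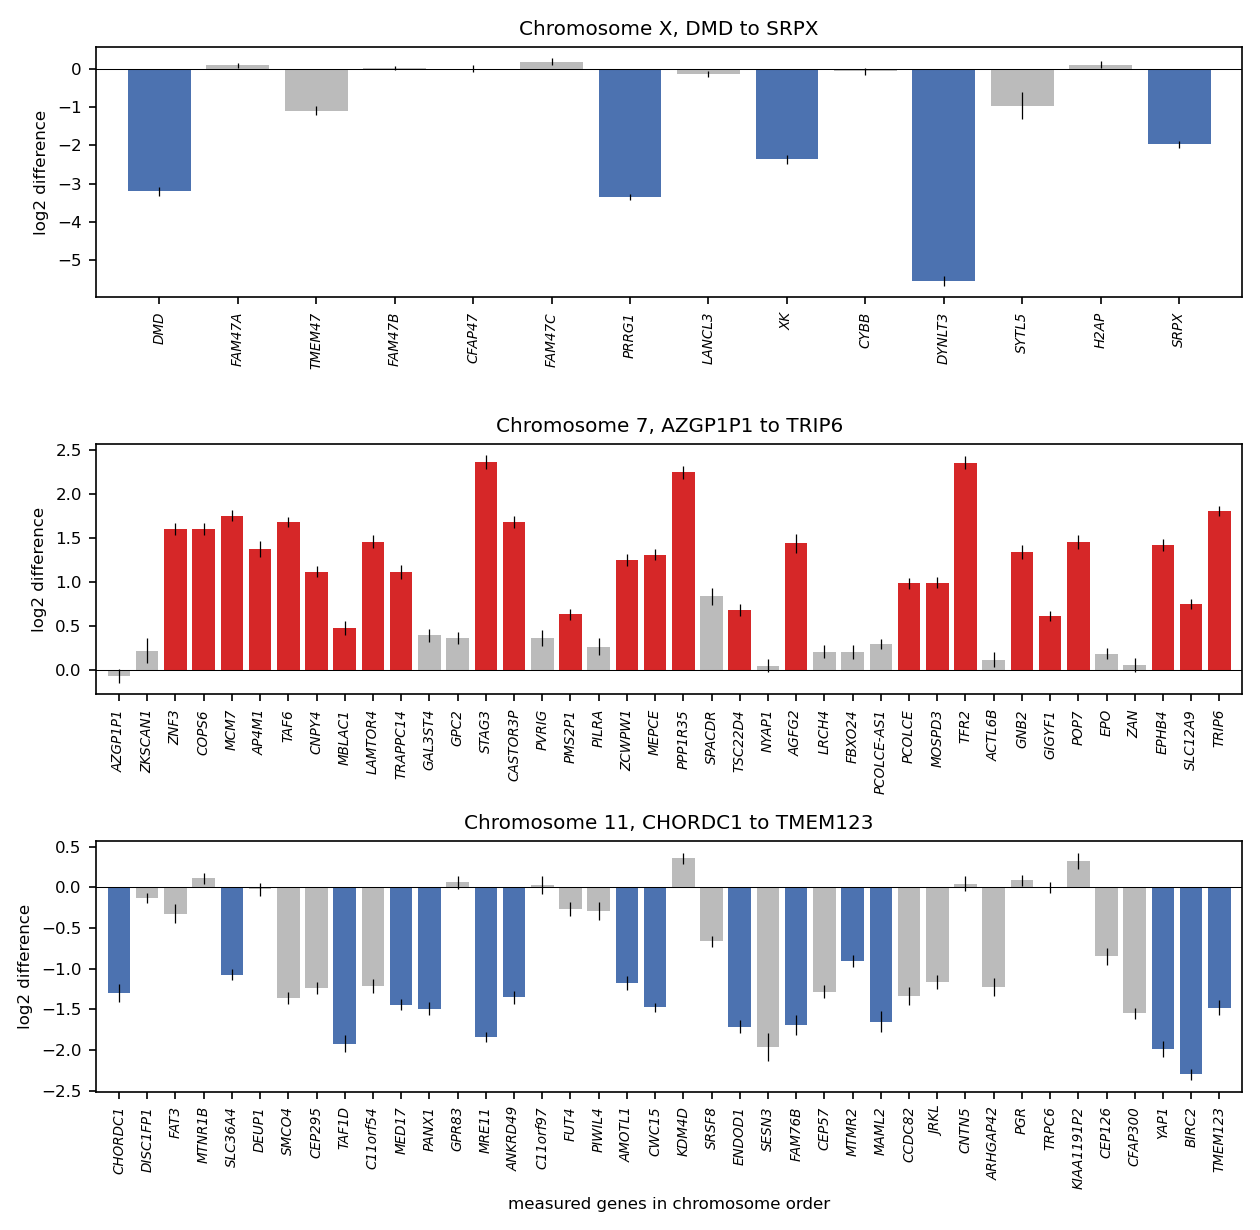
Log2 difference of 93VU147T from the mean of the 5 lines (y axis, bars with SE) for measured genes in chromosome order in 3 stretches. Red and blue bars are genes above and below each line and gray bars are not called: 26 of 40 genes are red on chromosome 7, 16 of 40 blue on chromosome 11 and 5 of 14 blue on chromosome X.

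The same rule was then applied to the 18 cetuximab arrays, which did not enter the calls. Of the 131 genes above by at least 2-fold, all were again higher than the mean of the lines, 109 were above each line, and 60 were above by at least 2-fold. Of the 111 genes below, all were again lower, 98 were below each line and 73 by at least 2-fold. Over all genes 4.04% were above and 3.68% below each line in these arrays, and 91 and 114 of 19775 genes were above and below by at least 2-fold. The arrays come from the same lines, so this repeats the line difference in other RNA and not in other tumors. All 10 leading genes below and 14 of the 15 above were called again. PSG4 was the exception, with a margin of 0.18 over the nearest line in the cetuximab arrays.

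**Figure D5:**
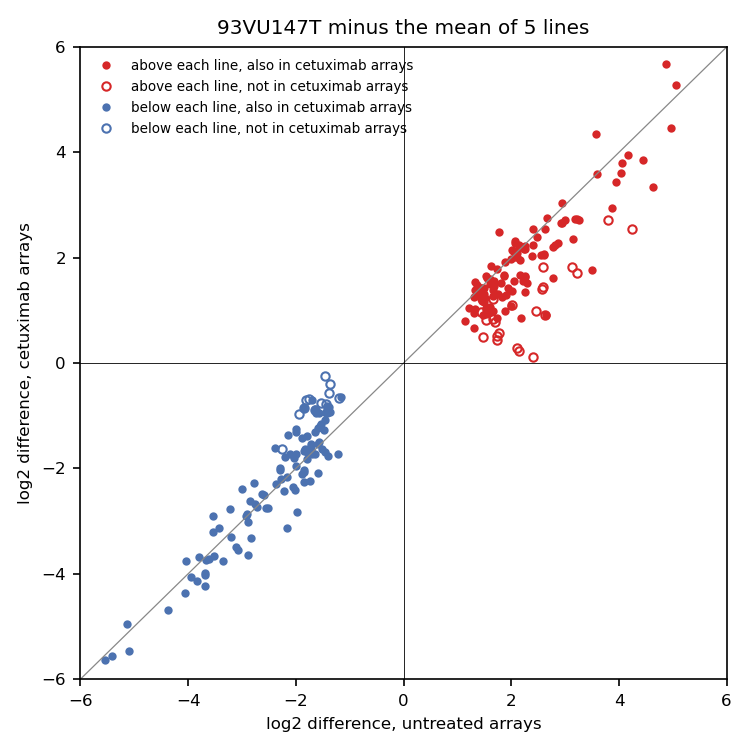
Log2 difference of 93VU147T from the mean of the 5 lines in untreated arrays (x axis) and in cetuximab arrays (y axis) for the 242 genes, with the line of equality. All points lie in the same-sign quadrants, and 207 of 242 (filled) were again outside the range of the 5 lines.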

How the data were processed

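Affymetrix hgu133plus2.0 arrays were run with 3 arrays per condition. Probe set values are on the log2 scale as deposited, after the authors ran fRMA, which normalizes to a frozen reference; their methods also name pSVA batch correction, and whether it entered these values is not stated. Of 54675 probe sets, 41091 carried 1 gene symbol, 1801 several and 11721 were not listed, and 1 probe set, chosen for its highest mean across all 42 arrays, stood for each of 19775 genes. Differences were tested with limma 3.58.1 in R 4.3.3 as group means of 18 control arrays, with Benjamini-Hochberg adjustment over all genes. The same rule was fitted on the 18 cetuximab arrays alone. The number of arrays limits the precision. Replicate numbers did not pair arrays between lines (correlations of deviations from -0.2739 to 0.1173 over 15 pairs of lines, 1 above 0.1), so no block was used. Named genes were the 15 above and 10 below with the widest margins, up to 4 called members of each list, genes the paper names, and members of 2-fold runs; other list members are given as examples, chosen after their values were seen. Members and lists were chosen with earlier results of these data known. The statistics were tested on simulated data. Alternatives covered left-out arrays and lines, probe set choice, a dim-gene filter, normalization, block, batch and moderation. Y-linked genes and XIST were not named.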

Additional observations from a re-analysis of the deposited data

Results flagged for a closer look

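The difference of 93VU147T from the mean of the 5 lines itself differed between untreated and cetuximab arrays for 14 of the 25 leading genes (interaction in limma, adjusted p under 0.05), against 5422 of all 19775 genes. For 10 of the 14 the difference was smaller under cetuximab and for 4 it was larger. The 25 genes were picked for wide margins in the same untreated arrays, which by itself favors smaller differences in other arrays. These counts describe the 25 genes and do not test an effect of cetuximab.

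The pregnancy-specific glycoproteins PSG7 and PSG4 changed by -1.74 ± 0.13 (SE, adjusted p = 2.31e-11), from 3.5 to 1.76, and by -1.69 ± 0.12 (adjusted p = 4.66e-12), from 4.24 to 2.55. CCDC144NL-AS1 changed by -1.72 ± 0.16 (adjusted p = 1.95e-09), the myosin light chain gene MYL9 by -1.3 ± 0.13 (6.41e-09) and the meiotic gene KASH5 by -1.17 ± 0.13 (4.05e-08). The efflux pump gene ABCC3 changed by -0.94 ± 0.13 (3.06e-06), SCGB1A1 by -0.59 ± 0.22 (0.0489), AKR1C3 by -0.51 ± 0.18 (0.0299) and the lipid droplet gene PLIN2 by -0.5 ± 0.13 (0.00485). In all of these the sign of the difference was the same in both sets of arrays.

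CLIC2 and ITGA4 were further above the other lines under cetuximab, by 0.81 ± 0.1 (adjusted p = 2.53e-07) and 0.78 ± 0.13 (1.58e-05). Among genes below, ARMCX3 and HOXB7 were further below by -0.31 ± 0.09 (0.0083) and -0.31 ± 0.09 (0.0096), and TPRG1 was less far below by 0.62 ± 0.2 (0.022).

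Arrays outside the comparison describe further how particular the 242 genes are. The HaCaT and SCC1 arrays were in other scan batches than the 93VU147T arrays, so line and scan batch cannot be told apart here. Untreated HaCaT keratinocytes, a line that is not from a carcinoma, reached the range of the 3 untreated 93VU147T arrays with at least 1 array for some genes. These were 4 of the 131 genes above, ZBED5-AS1, TPM1, AKR1B10 and MPPED2. They also were 9 of the 111 genes below, among them CALB1 and TGFBR3. The cetuximab arrays of SCC1 reached it for 2 genes above, IGFLR1 and SLC2A6. For genes below they reached it for 11, among them CALB1, DSG2, SERPINB3, XK and SRPX. SCC1 was treated, so its values set a line and a treatment against 93VU147T at once. CALB1 averaged 3.31 in HaCaT and 3.37 in SCC1, against 4.1 in 93VU147T.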

How the results depend on the processing

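Leaving out 1 of the 18 arrays at a time gave 4760 to 5610 genes higher and 4248 to 4784 lower than the mean of the lines, 708 to 910 above and 621 to 759 below each line, and 126 to 146 above and 108 to 120 below by at least 2-fold. In the cetuximab arrays 200 to 207 of the 242 genes were called again. Without replicate 3 of 93VU147T, 231 of the 242 genes were in the set of 266. The choice of lines moved the counts more. Without SCC047, 1351 genes were above and 1120 below each remaining line, 232 and 221 by at least 2-fold. Without SCC090, 1342 were above each, and 214 and 211 were above and below by at least 2-fold; fewer lines make the rule easier to meet. With the mean of all probe sets of a gene, 61 genes were below each line by at least 2-fold, and 154 of the 242 genes were shared. With probe sets chosen by the ratio of median absolute deviations 216 were shared, and the leading genes CCDC144NL-AS1 (difference 0.109) and F2RL2 (0.129) were not called. With the replicate number as a block, 5419 genes were higher and 4623 lower, 843 above and 709 below each line, 131 and 111 by at least 2-fold, and 205 were called again in the cetuximab arrays.

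Of 2934 differences of 89 named genes under the alternatives, 2905 kept direction and call, 8 kept direction but lost the call, 2 gained it, and 19 changed sign. None of the 19 was called under the alternative, and 1 of them, TFAP2A, was called in the comparison itself. The gained calls were BMP2 without SCC090 (-0.772, adjusted p = 4.65e-07 in limma) and HRAS without SCC047 (-0.2, 0.0456). ERBB2 ran from -0.02 to 0.022 without single arrays, at -0.011 with centred medians, and at -0.106, -0.113 and -0.042 without SCC25, SQ20B and SCC61. BMP2 was 0.185 without SCC61 and 0.105 without SCC047. FGFR4 was 0.053 with the mean of probe sets, 0.044 without SCC047 and 0.107 without SCC090. TFAP2A was 0.028 without SCC61. HRAS ran from -0.088 to 0.008 without single arrays, and was 0.039 with quantile normalization, 0.018 without SCC25 and 0.127 without SCC61. Values under log2 6 lie near those of undetected genes, which limits differences that rest on them.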

Other observations

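Zinc finger genes were frequent among the low genes, a group noticed after the values were seen. Genes with a ZNF symbol were 10 of the 111 genes below each line by at least 2-fold (9.01%), with 2.15% of all tested genes, and 1 of the 131 genes above (0.763%). Without the 2-fold limit they were 23 of 737 below (3.12%) and 14 of 885 above (1.58%), so the share was nearer to that of all genes.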
